A study of Mus musculus with 12 samples.

Results

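The enzymes and transporters of fatty acid beta-oxidation were followed across the livers of male wild-type (C57BL6/J) and Cyp1b1 null mice on low-fat and high-fat diets. The set comprised 35 genes named for a role in the mitochondrial or the peroxisomal pathway, and all 35 were measured among the 14911 genes tested. Of these, 17 encode mitochondrial proteins and 14 peroxisomal proteins, and 4 encode proteins found in both places or whose place is not settled. The 4 groups of 3 arrays were wild-type mice on 10% fat, wild-type mice on 60% fat, Cyp1b1 null mice on 10% fat and Cyp1b1 null mice on 60% fat. All mice went onto their diet at weaning, at 3 weeks of age, and were killed at 14 weeks. Each array set liver RNA, described as a pool of 3 samples and labelled with Cy3, against a common pool of wild-type low-fat liver labelled with Cy5, and no dyes were swapped. The making of the null allele was not given in the sources used here.

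Fatty acids are burned in the liver by shortening them step by step from the carboxyl end. Mitochondria take long chains in through the carnitine shuttle and pass them through acyl-CoA dehydrogenases, hydratases, hydroxyacyl-CoA dehydrogenases and thiolases, with electrons leaving through the electron transfer flavoprotein. Peroxisomes handle very long, branched and dicarboxylic chains with oxidases in place of the dehydrogenases, import them through ABC transporters and export shortened chains as carnitine esters. Many of these genes in both organelles are known targets of the fatty acid receptor PPAR-alpha in rodent liver.

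Values are log2 ratios of sample over the wild-type low-fat reference after loess normalisation, and a difference of 1 is a change of 2-fold. The wild-type low-fat arrays themselves did not average 0 for every gene, with means of 0.73 for Phyh and -0.77 for Etfdh. With no dyes swapped, an offset of a gene between dyes cannot be told apart from a difference from the reference. Groups are therefore read against each other and not against 0. Array values are given for replicates 1, 2 and 3 in that order, and differences are from limma fitted to all 12 arrays, with standard errors (SE) and Benjamini-Hochberg adjusted p over all genes. With 3 arrays a group, precision is limited. Whether the 3 arrays of a group came from separate pools is unstated in the labels, and the p-values speak only of the spread among these arrays.

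The arrays lay on 4 slides read in 3 scans. Slide 1 held replicate 1 of both wild-type groups with null high-fat replicates 1 and 3, slide 2 held null low-fat replicates 2 and 3, slide 3 held 1 array of each group, and slide 4 held replicate 3 of both wild-type groups. The source label names hepatocytes. Of the 10 hepatocyte markers listed, 9 had a probe and all 9 were measured, as were 8 of 8 Kupffer and macrophage, 7 of 7 stellate, 5 of 5 endothelial and 5 of 5 bile duct markers, so markers of other liver cell types were present as well. None of 5 muscle markers and 1 of 5 adipocyte markers, Cfd, was measured. In such bulk RNA fewer cells of a type and less RNA per cell cannot be told apart. The probe for Cyp1b1 itself read higher in the arrays labelled null, by 2.22 at low fat and 1.75 at high fat. The place of that probe relative to the deleted part was not given in the labels. The probe therefore does not check the genotype, and "null" below means the arrays labelled so.

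None of the 35 genes passed an adjusted p of 0.05 in limma in any of the 6 comparisons made. The shares of all genes that did were 0.0201% and 0.0134% for genotype at low and high fat, 0.00671% for diet in wild-type livers and 0.00671% in null livers, 0.288% for the mean genotype difference and 0% for the interaction. The smallest adjusted p was 0.138, for Ech1 in the genotype difference averaged over both diets. At an unadjusted p under 0.05 the module held 7 genes for diet in wild-type livers, 2 for diet in null livers, 6 for genotype at low fat, 4 for genotype at high fat, 7 for the mean genotype difference and 0 for the interaction. The 3 genotype counts include Abcd2, whose probe passed the filter on low values only through the wild-type groups and so had to differ. Unless named, it is left out of the genotype counts below of lower genes at that threshold or without overlap. Medians and counts of genes above or below 0 still include it. Counts below use that unadjusted threshold and are set against the share of all 14911 genes that met it. Across the module the pooled SD between arrays of a group ran from 0.12 to 0.90, with a median of 0.45, so genes differed widely in how well a given shift could be seen. The map of the 35 genes on the 12 arrays shows the whole data set.

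**Figure D1:**
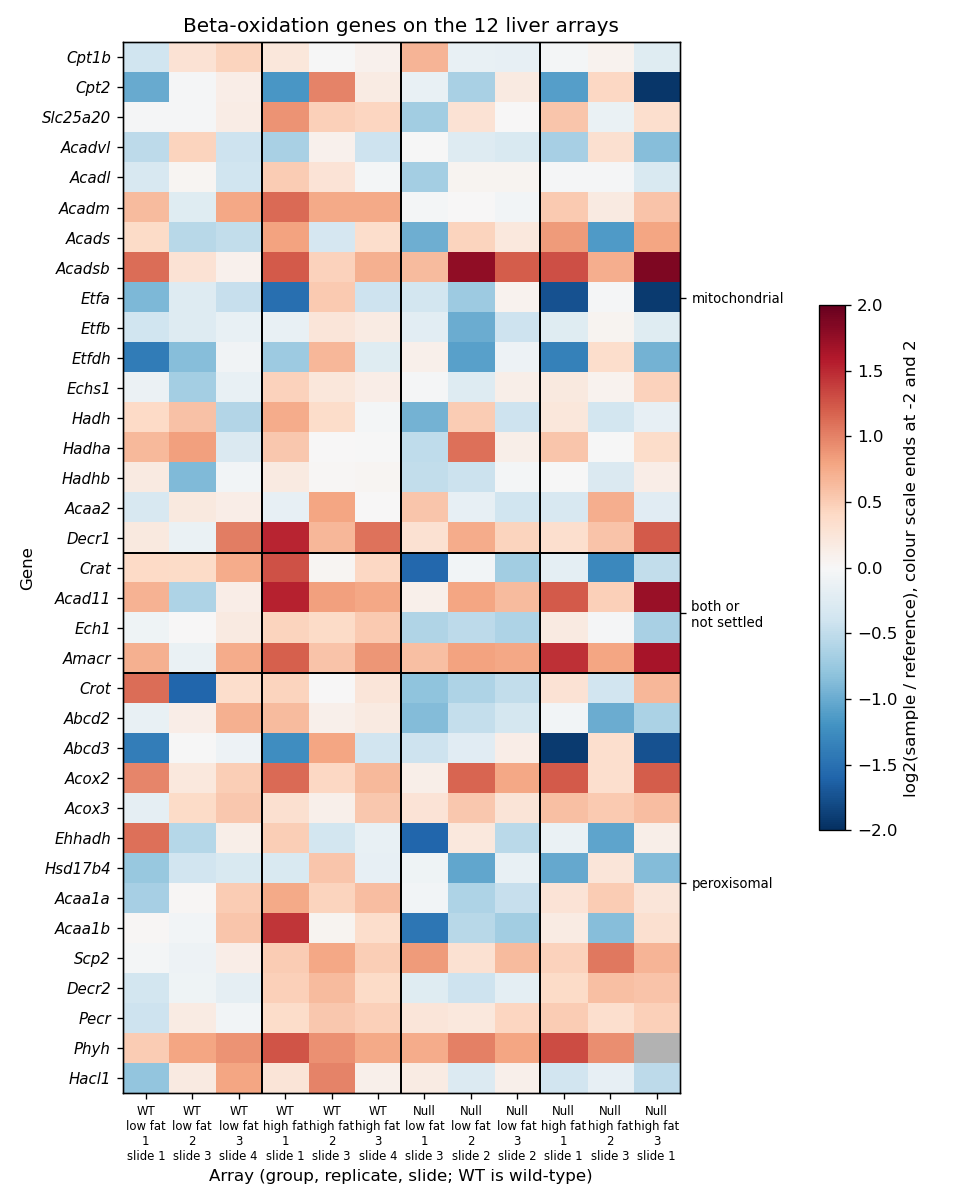
Log2 ratio of sample over the wild-type low-fat reference for each gene (rows, by compartment) on each of the 12 arrays (columns, by group, replicate and slide). The wild-type high-fat columns are mostly red, and Cpt2, Etfa and Abcd3 are blue on the slide 1 columns of the 3 groups that have one. The grey cell is Phyh on null high-fat replicate 3, a spot left out as not uniform.

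High fat feeding went with higher values across the module in wild-type livers. The median difference, high minus low fat, was 0.34 over the 35 genes and 0.0064 over all genes tested, and 31 genes lay above 0 and 4 below, against 51.2% and 48.8% of all genes. Of the 35, 7 passed the unadjusted threshold as higher and 0 as lower, where 1.81% of all genes were higher and 2.21% lower. The 7 were Acad11, Acaa1a, Decr1, Decr2, Echs1, Pecr and Scp2. The 3 high-fat arrays lay wholly above the 3 low-fat arrays for 8 genes, against 3.55% of all genes, and wholly below for none, against 3.7%. The median over the module was 0.50 within slide 1, 0.49 within slide 3 and 0.094 within slide 4, each from 1 array per diet. Under median centring of arrays in place of loess the median was 0.56 while that of all genes was 0.13. The array medians of the module ran from -0.083 to 0.14 at low fat and from 0.24 to 0.49 at high fat and did not overlap. The median of the 9 hepatocyte markers was -0.20 to 0.22 on the low-fat arrays and 0.15 to 0.56 on the high-fat arrays, with 6 of 9 higher on high fat. Of the 8 Kupffer and macrophage markers 7 were lower on high fat (median difference -0.33), with array medians of -1.48 to 0.039 at low fat and -1.11 to -0.20 at high fat. All 5 bile duct markers were lower (median difference -0.14), with array medians of -1.41 to 0.085 and -0.94 to -0.17. The part of these markers in the result was not tested.

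In null livers the same diet comparison gave a median of 0.21 over the module and 0.018 over all genes, with 26 genes above 0 and 9 below, against 54.5% and 45.5% of all genes. Of the 35, 2 were past the unadjusted threshold, both higher, where 0.858% of all genes were higher and 1.05% lower. Both, Decr2 and Acaa1a, were also among the 7 in wild-type livers, and 0.308% of all genes were higher in both genotypes by that rule. The arrays did not overlap for 4 higher genes, Crot, Acadm, Acaa1a and Decr2, against 2.3% of all genes, and for no lower gene, against 2.54%. The median was 0.26 within slide 3. It was 0.18 within scan 1, where the low-fat arrays were on slide 2 and the high-fat arrays on slide 1, so slide and diet cannot be told apart there. It was 0.095 without null low-fat replicate 1, 0.11 without null high-fat replicate 1, 0.34 without null low-fat replicate 2 and 0.32 without null high-fat replicate 2. Median centring gave 0.070 with 21 genes above 0 and 14 below, where all genes had a median of -0.073. The array medians of the module ran from -0.15 to 0.013 at low fat and from 0.17 to 0.19 at high fat.

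**Figure D2:**
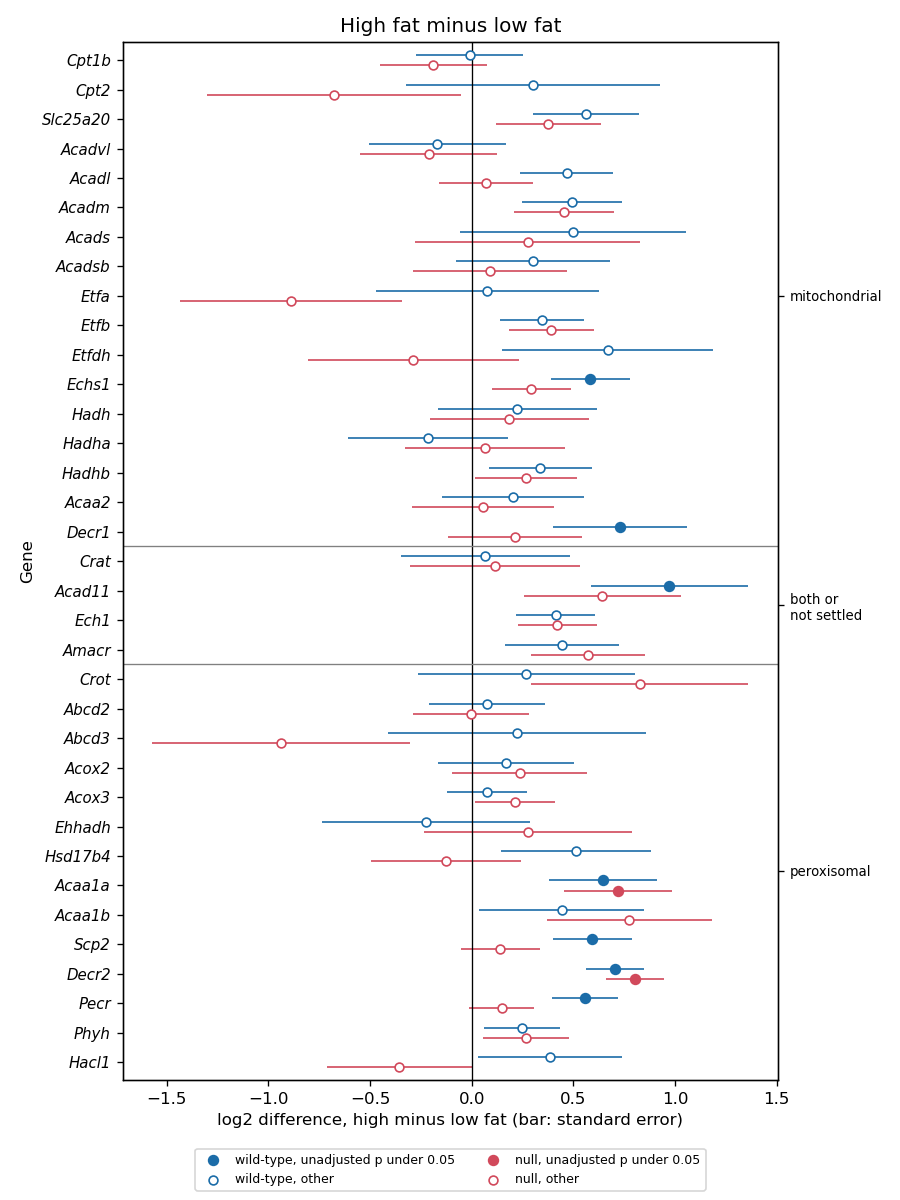
Log2 difference between high-fat and low-fat livers for each gene, in wild-type (blue) and null (red) mice, with the limma standard error as the bar. Filled points have an unadjusted p under 0.05, and most points lie to the right of 0 in both genotypes, with Decr2 and Acaa1a filled in both.

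The genotype comparison at low fat had no common direction. The median null minus wild-type difference was 0.0081 over the module and -0.0055 over all genes, with 18 genes above 0 and 17 below, against 49.1% and 50.9% of all genes, and median centring, which moved all genes to 0.33, gave 0.56 with 30 above and 5 below. Leaving out wild-type low-fat replicate 1 gave a median of -0.096 and a difference of 0.24 for Pecr, against 0.39 with all arrays. Without Abcd2, 3 genes were lower (Crat, Acaa1b, Ech1) and 2 higher (Scp2, Pecr) at an unadjusted p under 0.05, where 3.76% of all genes were lower and 3.43% higher. Apart from Abcd2, these 5 genes were also the ones whose arrays did not overlap, against 4.52% of all genes wholly lower and 4.81% wholly higher. The only slide with both groups, slide 3, gave a module median of -0.076, and within scan 1, with both null arrays from slide 2 and its wild-type array from slide 1, it was 0.084. In that scan, slide and genotype cannot be told apart. The median of the 7 stellate markers was -0.67 to 0.77 on the wild-type arrays and -1.02 to -0.69 on the null arrays, with 5 of 7 lower. All 5 bile duct markers were lower (median difference -0.22), as were 6 of 8 Kupffer and macrophage markers (-0.24). The part of these markers in the result was not tested.

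At high fat the null livers lay lower across most of the module. The median difference was -0.23 against 0.0022 over all genes, with 26 genes below 0 and 9 above, against 49.4% and 50.6% of all genes. Without Abcd2, 3 genes were lower (Crat, Ech1, Hacl1) and 0 higher at an unadjusted p under 0.05, where 1.35% of all genes were lower and 1.22% higher. The arrays lay wholly lower for 4 genes besides Abcd2, these 3 and Acadm, against 4.09% of all genes, and wholly higher for none, against 3.66%. Within slide 1 the median was -0.32 and within slide 3 it was -0.30. Median centring gave -0.082 with 17 genes above 0 and 18 below, where all genes had 0.083. Cfd, the single adipocyte marker measured, was also lower in null high-fat livers, with a difference of -2.91, reading 0.50 to 3.65 on the wild-type and -1.20 to -0.094 on the null arrays. The other adipocyte markers Adipoq, Lep, Plin1 and Retn were not measured. Of the 7 stellate markers 6 were lower in null livers (median difference -0.27), and of the 8 Kupffer and macrophage markers 7 were higher (0.13). The part of Cfd and these markers in the result was not tested.

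Crat and Ech1 were lower in null livers on both diets at an unadjusted p under 0.05, which 0.637% of all genes were. Averaged over both diets, the null minus wild-type median was -0.12 over the module, with 25 genes below 0 and 10 above, against 51.2% and 48.8% of all genes, but median centring turned it to 0.22, close to the 0.21 of all genes, with 27 genes above 0 and 8 below. It was -0.19 without wild-type low-fat replicate 1 or null high-fat replicate 2 and -0.18 without null low-fat replicate 1. Without Abcd2, 4 genes were lower (Crat, Acaa1b, Ech1, Acadm) and 2 higher (Acadsb, Scp2) at an unadjusted p under 0.05, where 4.19% of all genes were lower and 4.21% higher. All 6 null arrays lay below all 6 wild-type arrays for Crat alone, against 0.308% of all genes, and above for none, against 0.402%. The diet and genotype comparisons share arrays with each other, so they are not independent.

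**Figure D3:**
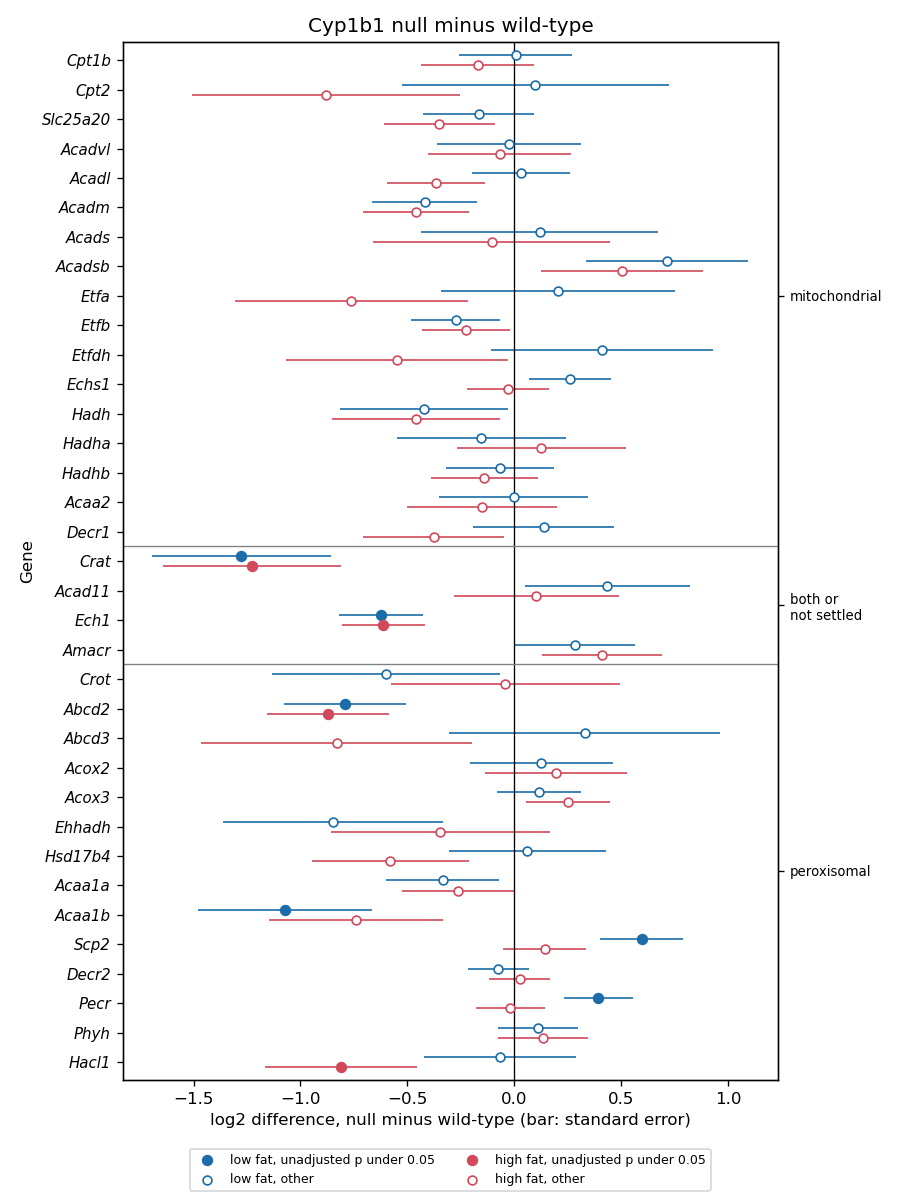
Log2 difference between Cyp1b1 null and wild-type livers for each gene, at low fat (blue) and high fat (red), with the limma standard error as the bar. Crat and Ech1 are filled on the left in both diets (unadjusted p under 0.05), as is Abcd2, well above background on 0 of 6 null arrays, and Scp2 and Pecr are filled on the right at low fat.

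The carnitine acyltransferases move acyl groups onto carnitine for transport. Crat, carnitine acetyltransferase of mitochondria and peroxisomes, had the largest genotype difference of the module. In wild-type livers it read 0.40, 0.38 and 0.74 at low fat and 1.27, 0.038 and 0.41 at high fat. On the null arrays it read -1.57, -0.047 and -0.70 at low fat and -0.19, -1.29 and -0.49 at high fat. Every null array lay below every wild-type array, with null low-fat replicate 1 and null high-fat replicate 2, both on slide 3, the lowest. The difference was -1.28 (SE 0.42, limma adjusted p = 0.518) at low fat, -1.23 (SE 0.42, adjusted p = 1.00) at high fat and -1.25 (SE 0.29, adjusted p = 0.161) averaged over both, the last being 2.38-fold lower. Over the mean of both diets it passed with scan as a block (-1.38, limma adjusted p = 0.0258), with slide as a random block (-1.34, limma adjusted p = 0.0376) and on Agilent's processed signals (-1.33, limma adjusted p = 0.0298). It did not pass in the main fit, with median centring, no background correction, no filter on dim probes, the mean of probes, a replicate block or a robust variance model. Leaving out any 1 array did not make it pass. Within slide 1 the high-fat difference was -1.61 and within slide 3 it was -1.33, and the low-fat difference within slide 3 was -1.95. Diet made a difference of 0.068 in wild-type and 0.12 in null livers, both smaller than their SE of 0.42.

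Crot, the peroxisomal carnitine octanoyltransferase that releases medium chains, was far more scattered. It read 1.11, -1.58 and 0.36 in wild-type low-fat livers and 0.45, 0.0073 and 0.24 in wild-type high-fat livers. The null values were -0.80, -0.61 and -0.50 at low fat and 0.30, -0.38 and 0.66 at high fat. Within wild-type low-fat the arrays spanned over 2 log2 units, with replicate 2 the lowest of all 12, while in null livers the high-fat arrays all lay above the low-fat arrays. Its diet difference in null livers was 0.83 (SE 0.54), and a second measured probe gave 0.54.

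The shuttle into mitochondria is formed by Cpt1 and Cpt2 with the carrier Slc25a20. Cpt1b, the muscle-type isoform of the outer-membrane transferase, read -0.41, 0.29 and 0.45 at low fat and 0.23, -0.0044 and 0.080 at high fat in wild-type livers. Its null arrays read 0.68, -0.15 and -0.17 at low fat and -0.033, 0.064 and -0.24 at high fat. The groups overlapped throughout, and no difference in diet or genotype exceeded its SE of 0.26. Slc25a20, the carnitine-acylcarnitine carrier, read -0.018, -0.017 and 0.15 at low fat and 0.89, 0.48 and 0.43 at high fat in wild-type livers, where the high-fat arrays all lay above the low-fat arrays. The null values, -0.69, 0.30 and 0.013 at low fat and 0.55, -0.14 and 0.34 at high fat, overlapped. Its diet difference was 0.56 (SE 0.26) in wild-type and 0.38 (SE 0.26) in null livers. Cpt2, the inner-membrane transferase, read -1.01, -0.027 and 0.14 at low fat and -1.16, 0.9996 and 0.16 at high fat in wild-type livers. Null livers gave -0.15, -0.64 and 0.19 at low fat and -1.11, 0.41 and -1.94 at high fat. Its 4 arrays on slide 1 were the 4 lowest of all 12, so the -0.88 (SE 0.63) of the high-fat genotype difference compared a null group with 2 arrays on slide 1 with a wild-type group with 1.

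The peroxisomal membrane carries ABC half-transporters for very long chains. Abcd2 (probe A_51_P249302) read -0.15, 0.14 and 0.70 at low fat and 0.64, 0.11 and 0.17 at high fat in wild-type livers. In null livers it read -0.86, -0.47 and -0.35 at low fat and -0.055, -0.998 and -0.64 at high fat. Null arrays lay below wild-type arrays within each diet, and the probe was well above background on all 6 wild-type arrays and on none of the 6 null arrays. The null value is therefore only a bound. The ratio differences were -0.79 (SE 0.28, limma adjusted p = 0.566) and -0.87 (SE 0.28, limma adjusted p = 1.00). A second Abcd2 probe, also well above background on none of the 6 null arrays and on 5 of the 6 wild-type arrays, gave -0.33 and -0.52.

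Abcd3, the most general of these transporters, showed how far a value can turn on the probe. The brightest of its 3 probes (A_52_P394395) read -1.39, -0.015 and -0.11 at low fat and -1.24, 0.78 and -0.39 at high fat in wild-type livers. The null arrays read -0.42, -0.23 and 0.13 at low fat and -1.92, 0.33 and -1.75 at high fat. The 4 slide 1 arrays were the 4 lowest. On the same arrays the probe A_51_P333526 read 0.72, -0.16 and 0.64 at low fat and 1.61, 0.87 and 0.56 at high fat in wild-type livers. Its null values were 0.34, 1.39 and 0.99 at low fat and 0.67, 0.77 and 1.39 at high fat, with no slide 1 array below 0. The high-fat genotype difference was -0.83 by the brightest probe and -0.072 and -0.12 by the others. The diet difference in null livers was -0.94 by the brightest probe and 0.038 and 0.017 by the others. By all 3 probes wild-type livers were higher on high fat, by 0.22 to 0.61. No direction is drawn from Abcd3 for genotype at high fat.

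Acyl-CoA dehydrogenases take the first oxidation in mitochondria, each for a range of chain lengths. Acadm, the medium-chain enzyme, read 0.63, -0.25 and 0.78 at low fat and 1.13, 0.75 and 0.75 at high fat in wild-type livers. At low fat the null arrays gave -0.046, 0.0037 and -0.050, and at high fat 0.53, 0.17 and 0.57. At high fat all null arrays lay below all wild-type arrays, and in null livers all high-fat arrays lay above all low-fat arrays. Its mean genotype difference was -0.44 (SE 0.17, limma adjusted p = 0.524), which median centring moved to 0.0027. Its diet difference was 0.49 in wild-type and 0.45 in null livers, with an SE of 0.25. Acadsb, which acts on short and branched chains, read 1.11, 0.28 and 0.079 at low fat and 1.22, 0.45 and 0.71 at high fat in wild-type livers. Null livers gave 0.63, 1.77 and 1.22 at low fat and 1.29, 0.73 and 1.87 at high fat. It was higher in null livers by 0.61 (SE 0.27, limma adjusted p = 0.581) over both diets, with overlapping arrays.

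Acad11, an acyl-CoA dehydrogenase family member, had the largest diet difference in wild-type livers. It read 0.69, -0.61 and 0.14 at low fat and 1.54, 0.82 and 0.77 at high fat, and the high-fat arrays all lay above the low-fat arrays. Its null arrays read 0.10, 0.78 and 0.64 at low fat and 1.23, 0.48 and 1.73 at high fat, where replicate 2 at high fat overlapped the low-fat arrays. The diet difference was 0.97 (SE 0.39, limma adjusted p = 1.00) in wild-type and 0.64 (SE 0.39) in null livers. Without wild-type low-fat replicate 2 the wild-type difference was 0.63. Acadl, the long-chain enzyme, read -0.32, 0.042 and -0.39 at low fat and 0.50, 0.28 and -0.045 at high fat in wild-type livers, a diet difference of 0.47 (SE 0.23) with overlap. Its null arrays read -0.68, 0.055 and 0.051 at low fat and -0.024, -0.024 and -0.31 at high fat, a difference of 0.071. Acadvl, the very-long-chain enzyme on the inner membrane, read -0.52, 0.45 and -0.42 at low fat and -0.66, 0.084 and -0.42 at high fat in wild-type livers. In null livers it read -0.0071, -0.25 and -0.30 at low fat and -0.66, 0.31 and -0.85 at high fat. It was 1 of the 4 genes not higher on high fat in wild-type livers (-0.17, SE 0.34), with Cpt1b, Ehhadh and Hadha. Acads, the short-chain enzyme, was higher on high fat by 0.50 (SE 0.56) in wild-type livers, with arrays from -1.14 to 0.85 over all groups.

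Peroxisomes use oxidases for this step. Acox2, the branched-chain oxidase, and Acox3, which also acts on branched chains, differed by 0.17 and 0.077 with diet in wild-type livers and by 0.16 and 0.18 between genotypes over both diets. None of these exceeded 1.5 times its SE. Electrons from the mitochondrial dehydrogenases pass through Etfa and Etfb to the quinone reductase Etfdh. Etfb read -0.40, -0.25 and -0.14 at low fat and -0.15, 0.24 and 0.16 at high fat in wild-type livers. The null arrays read -0.21, -0.99 and -0.42 at low fat and -0.25, 0.051 and -0.24 at high fat. High fat arrays were higher by 0.34 in wild-type and 0.39 in null livers (SE 0.21), with overlap. Etfa read -0.90, -0.26 and -0.46 at low fat and -1.51, 0.53 and -0.41 at high fat in wild-type livers. Its null values were -0.37, -0.72 and 0.069 at low fat and -1.74, -0.022 and -1.92 at high fat. Etfdh read -1.39, -0.85 and -0.069 at low fat and -0.72, 0.66 and -0.25 at high fat in wild-type livers. At low fat the null arrays gave 0.10, -1.09 and -0.094, and at high fat -1.36, 0.36 and -0.95. By the probes used, both genes read lower on slide 1 than on slide 3 in each of the 3 groups with arrays on both, as Cpt2 did. A second Etfdh probe read higher on slide 1 in wild-type low-fat livers (0.0037 against -0.62) and lower in wild-type high-fat livers (0.80 against 0.99). At null high fat it read 0.32 and -0.34 on slide 1 and 0.96 on slide 3. The SE of the diet and genotype differences was 0.55 for Etfa and 0.52 for Etfdh.

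Hydration, the second oxidation and thiolysis follow. In mitochondria the trifunctional protein, Hadha and Hadhb, does all of this for long chains. Hadha read 0.65, 0.82 and -0.29 at low fat and 0.53, 0.0019 and -0.0086 at high fat in wild-type livers. Null livers gave -0.51, 1.11 and 0.12 at low fat and 0.55, -0.0054 and 0.36 at high fat. Hadhb read 0.18, -0.89 and -0.052 at low fat and 0.19, 0.024 and 0.042 at high fat in wild-type livers. In null livers it read -0.49, -0.43 and -0.045 at low fat and -0.014, -0.28 and 0.13 at high fat. Groups overlapped for both subunits, and the 2 measured Hadha probes had opposite signs in all 4 comparisons of 3 against 3 arrays. The second probe was dim, well above background on 9 of 12 arrays in the sample channel and 6 in the reference channel. Its differences were small, from -0.061 to 0.12, so its signs say little. Echs1, the short-chain enoyl-CoA hydratase, read -0.11, -0.68 and -0.15 at low fat and 0.46, 0.23 and 0.13 at high fat in wild-type livers, with no overlap and a difference of 0.58 (SE 0.19, limma adjusted p = 1.00). Its null arrays read -0.019, -0.26 and 0.12 at low fat and 0.19, 0.074 and 0.47 at high fat, a difference of 0.29 with overlap. Hadh and Acaa2, the short-chain hydroxyacyl-CoA dehydrogenase and the mitochondrial thiolase, had diet differences of 0.23 and 0.20 in wild-type livers, and the Acaa2 probe was saturated in the sample channel on 8 of 12 arrays, which limits what it can show.

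The bifunctional enzymes of peroxisomes are Ehhadh and Hsd17b4. Ehhadh, a textbook PPAR-alpha target, read 1.10, -0.57 and 0.11 at low fat and 0.49, -0.37 and -0.15 at high fat in wild-type livers. The null arrays read -1.58, 0.21 and -0.53 at low fat and -0.13, -1.06 and 0.11 at high fat. Wild-type livers showed no higher value on high fat (-0.22, SE 0.51), null livers lay lower at low fat (-0.85, SE 0.51), and arrays overlapped in each comparison. Hsd17b4 read -0.76, -0.39 and -0.31 at low fat and -0.30, 0.55 and -0.16 at high fat in wild-type livers, where the high-fat arrays all lay above the low-fat arrays, by narrow margins. Its null values were -0.091, -1.04 and -0.14 at low fat and -1.03, 0.25 and -0.87 at high fat. The diet difference was 0.51 in wild-type and -0.13 in null livers, with an SE of 0.37.

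Peroxisomal thiolysis is done by the near-identical thiolases Acaa1a and Acaa1b and by Scp2, whose long product is a thiolase for branched chains. Acaa1a (probe A_51_P327075) read -0.66, 0.029 and 0.51 at low fat and 0.76, 0.45 and 0.61 at high fat in wild-type livers. Its null values were -0.048, -0.62 and -0.47 at low fat and 0.28, 0.51 and 0.24 at high fat. In null livers every high-fat array lay above every low-fat array, and in wild-type livers replicate 3 at low fat overlapped the high-fat arrays. The diet difference was 0.65 (limma adjusted p = 1.00) and 0.72 (limma adjusted p = 1.00), with an SE of 0.26. Without wild-type low-fat replicate 1 the wild-type difference was 0.33.

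Acaa1b (probe A_52_P423174) read 0.020, -0.056 and 0.56 at low fat and 1.44, 0.059 and 0.36 at high fat in wild-type livers. At low fat the null arrays gave -1.44, -0.56 and -0.70, and at high fat 0.16, -0.86 and 0.33. At low fat all null arrays lay below all wild-type arrays, and at high fat they overlapped. The genotype difference was -1.07 (SE 0.41, limma adjusted p = 0.590) at low fat and -0.74 (SE 0.41) at high fat. For comparison, the 3 probes named Acaa1a gave low-fat genotype differences of -0.34, -0.93 and -1.33, so those with the larger differences read like the Acaa1b probe. The last of these (A_52_P423183) read -2.16, -0.66 and -1.09 on the null low-fat arrays. Signal from these paralogues can be shared between probes, and which of the 2 genes was lower is uncertain.

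Scp2 read -0.035, -0.10 and 0.14 at low fat and 0.50, 0.78 and 0.49 at high fat in wild-type livers. Null livers gave 0.86, 0.31 and 0.63 at low fat and 0.46, 1.06 and 0.68 at high fat. The wild-type low-fat arrays were the 3 lowest of all 12, so the value was higher with high fat in wild-type livers (0.59, SE 0.19, limma adjusted p = 0.996) and higher in null livers at low fat (0.60, limma adjusted p = 0.514). These 2 comparisons share the wild-type low-fat arrays. The probe was saturated in the sample channel on 6 of 12 arrays, 1 in each wild-type group and 2 in each null group. In the reference channel it was saturated on 4. The plot of 8 genes by array shows these thiolases beside Crat, Ech1, Abcd2, Decr2 and Cpt2.

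**Figure D4:**
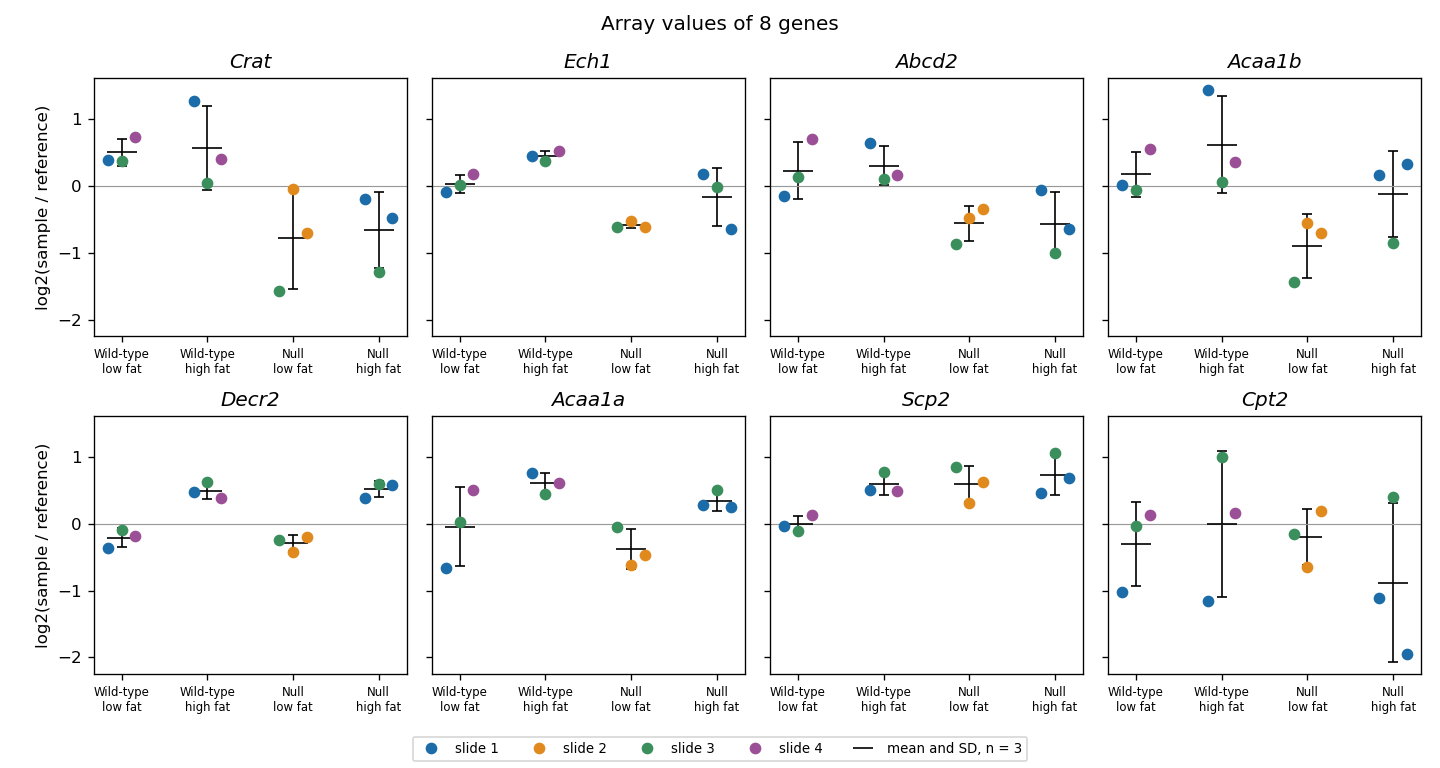
Log2 ratio of sample over reference on every array for 8 genes, by group, coloured by slide, with the group mean and SD as bars (n = 3). The 6 null points of Crat lie below its 6 wild-type points, the high-fat points of Decr2 lie above its low-fat points in both genotypes, and the blue slide 1 points of Cpt2 lie lowest in every group that has them.

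Double bonds need auxiliary reductases and isomerases. Decr2, the dienoyl-CoA reductase of peroxisomes (probe A_51_P443293), had the smallest p of the module in both diet comparisons. It read -0.36, -0.088 and -0.18 at low fat and 0.47, 0.63 and 0.38 at high fat in wild-type livers. In null livers it read -0.24, -0.42 and -0.20 at low fat and 0.39, 0.59 and 0.58 at high fat. All 6 high-fat arrays lay above all 6 low-fat arrays, whatever the genotype or slide. The diet difference was 0.70 (SE 0.14, limma adjusted p = 0.581) in wild-type and 0.80 (SE 0.14, limma adjusted p = 0.410) in null livers, 1.63-fold and 1.75-fold. Within slides the wild-type difference was 0.84, 0.72 and 0.56 and the null difference on slide 3 was 0.83. The genotype difference was -0.075 at low fat and 0.025 at high fat (SE 0.14).

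Ech1, the dienoyl-CoA isomerase present in mitochondria and peroxisomes (probe A_51_P421846), had the smallest p of the module in each genotype comparison. It read -0.083, 0.013 and 0.18 at low fat and 0.44, 0.38 and 0.53 at high fat in wild-type livers. In null livers it read -0.61, -0.53 and -0.62 at low fat and 0.18, -0.020 and -0.65 at high fat. Null arrays lay wholly below wild-type arrays at each diet. The null low-fat arrays lay close together, while null high-fat replicate 3 was the lowest of all 12. The genotype difference was -0.62 (limma adjusted p = 0.497) at low fat, -0.61 (limma adjusted p = 1.00) at high fat and -0.62 (SE 0.14, limma adjusted p = 0.138) over both. Without null high-fat replicate 3 the high-fat difference was -0.37. The diet difference was 0.41 in wild-type, without overlap, and 0.42 in null livers, with overlap (SE 0.20).

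Decr1, the mitochondrial dienoyl-CoA reductase, read 0.20, -0.14 and 1.02 at low fat and 1.52, 0.66 and 1.09 at high fat in wild-type livers. The null arrays read 0.31, 0.74 and 0.45 at low fat and 0.34, 0.57 and 1.23 at high fat. Its diet difference was 0.73 (SE 0.33, limma adjusted p = 1.00) in wild-type livers, where replicate 3 at low fat overlapped the high-fat arrays, and 0.21 in null livers. With wild-type low-fat replicate 2 left out, the wild-type difference was 0.48. A second, dimmer probe gave 0.27 and 0.11. Pecr, the peroxisomal enoyl-CoA reductase, read -0.41, 0.16 and -0.059 at low fat and 0.36, 0.54 and 0.48 at high fat in wild-type livers. Its null values were 0.24, 0.21 and 0.43 at low fat and 0.51, 0.33 and 0.48 at high fat. The wild-type low-fat arrays were again the 3 lowest of all 12. Its diet difference was 0.56 (SE 0.16, limma adjusted p = 0.852) in wild-type and 0.15 in null livers.

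Phytanic acid and similar branched chains are first shortened by alpha-oxidation in peroxisomes. Hacl1, the hydroxyacyl-CoA lyase of this route, read -0.79, 0.19 and 0.79 at low fat and 0.25, 0.996 and 0.094 at high fat in wild-type livers. At low fat the null arrays gave 0.16, -0.28 and 0.10, and at high fat -0.39, -0.17 and -0.52. At high fat the null arrays lay wholly below the wild-type arrays (-0.81, SE 0.36, limma adjusted p = 1.00), and at low fat they overlapped (-0.067). The high-fat difference was -0.54 without wild-type high-fat replicate 2. Amacr, the racemase that prepares branched chains for oxidation, read 0.71, -0.13 and 0.75 at low fat and 1.19, 0.58 and 0.89 at high fat in wild-type livers. Null livers gave 0.60, 0.80 and 0.78 at low fat and 1.46, 0.79 and 1.64 at high fat. It was higher on high fat by 0.45 and 0.57 (SE 0.28), with overlap. Phyh, phytanoyl-CoA hydroxylase, differed by 0.25 with diet in wild-type livers and by 0.11 with genotype at low fat. Its null high-fat group had 2 arrays.

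The promoters of 4 genes are shown because the results turn on them: Decr2 and Acaa1a were past the unadjusted threshold for diet in both genotypes, Ech1 was past it for genotype on both diets, and Acaa1b is the near-identical paralogue of Acaa1a. Each line gives the 250 bases before the RefSeq start (GRCm38.p6), 5′ to 3′ on the gene's strand, with GC boxes (CCGCCC) and CCAAT boxes on either strand in capitals. The windows are chr17:26090165-26090414 on the minus strand for Decr2, chr9:119341044-119341293 on the plus strand for Acaa1a, chr9:119157094-119157343 on the minus strand for Acaa1b and chr7:28825088-28825337 on the plus strand for Ech1.
Decr2: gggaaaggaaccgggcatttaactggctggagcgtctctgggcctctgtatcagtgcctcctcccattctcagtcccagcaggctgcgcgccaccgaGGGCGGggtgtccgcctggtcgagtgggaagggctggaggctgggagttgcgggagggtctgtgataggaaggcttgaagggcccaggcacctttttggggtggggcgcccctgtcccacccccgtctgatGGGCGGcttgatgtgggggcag
Acaa1a: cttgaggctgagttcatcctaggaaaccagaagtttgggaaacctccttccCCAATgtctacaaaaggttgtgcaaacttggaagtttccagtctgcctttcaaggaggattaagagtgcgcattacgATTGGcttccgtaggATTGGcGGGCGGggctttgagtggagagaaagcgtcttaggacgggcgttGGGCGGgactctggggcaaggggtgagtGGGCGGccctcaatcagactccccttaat
Acaa1b: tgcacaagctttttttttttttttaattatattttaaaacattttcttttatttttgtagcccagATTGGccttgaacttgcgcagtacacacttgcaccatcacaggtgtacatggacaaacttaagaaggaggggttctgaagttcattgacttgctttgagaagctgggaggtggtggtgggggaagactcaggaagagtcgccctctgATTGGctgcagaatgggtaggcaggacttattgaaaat
Ech1: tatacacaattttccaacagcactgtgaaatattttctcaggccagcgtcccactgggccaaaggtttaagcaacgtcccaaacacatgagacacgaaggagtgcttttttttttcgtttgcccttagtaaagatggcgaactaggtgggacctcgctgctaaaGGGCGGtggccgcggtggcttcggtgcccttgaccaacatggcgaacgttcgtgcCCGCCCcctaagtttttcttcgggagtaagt
Decr2 and Ech1 had 2 GC boxes each and no CCAAT box, Acaa1a had 3 of each, and Acaa1b had no GC box and 2 CCAAT boxes. Acaa1a and Acaa1b had the same base at 78 of the 250 distances from the start. The GC share of the windows was 66%, 53.6%, 41.6% and 51.2% in the order printed. Of the 35 genes, 28 were in the table of promoters. A GC box was in 19 of the 28, against 32.7% of all 32851 promoters, and a CCAAT box in 12, against 33.8%. The nuclear receptor half-site AGGTCA, on either strand, was in 4 of the 28 (Acadm, Acadvl, Echs1 and Scp2), against 14% of all promoters, and its direct repeat with 1 base between the copies, a form PPAR-alpha is known to bind, in none, against 0.0335%. The box TATAAA was in none of the 28, against 12.4%. A match describes letters in this window and nothing about binding.

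Mitochondrial and peroxisomal genes were then set side by side. With diet in wild-type livers the medians were 0.34 for the 17 mitochondrial genes and 0.33 for the 14 peroxisomal genes, and in null livers they were 0.090 and 0.23. The genotype medians were 0.0081 and -0.0031 at low fat, -0.23 and -0.15 at high fat, and -0.10 and -0.26 over both diets. The last are medians of each gene's mean difference, so they need not lie between the medians of the single diets. Per array, the peroxisomal median minus the mitochondrial median was 0.16 ± 0.29 in wild-type low-fat, 0.14 ± 0.13 in wild-type high-fat, -0.019 ± 0.092 in null low-fat and 0.35 ± 0.12 in null high-fat livers (SD, n = 3). The null high-fat arrays, at 0.27 to 0.48, lay above the null low-fat arrays, at -0.10 to 0.079, while the wild-type arrays ran from -0.053 to 0.49 at low fat and from 0.025 to 0.29 at high fat. Of the 3 null high-fat arrays 2 were on slide 1, where Cpt2, Etfa and Etfdh read low by the probes used. The part of the slide in this contrast was not tested.

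**Figure D5:**
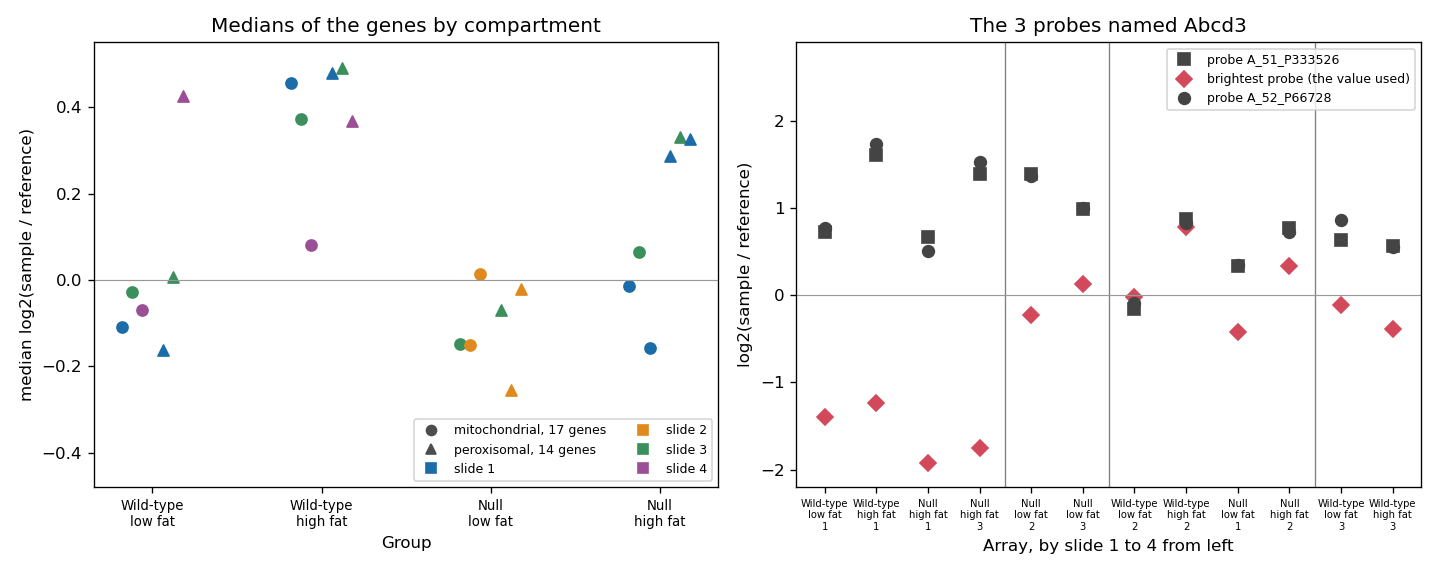
Left, median log2 ratio of the 17 mitochondrial (circles) and 14 peroxisomal genes (triangles) on each array, by group and coloured by slide. The 3 null high-fat triangles, at 0.29 to 0.33, lie above the 3 circles, at -0.16 to 0.064. Right, the 3 Abcd3 probes on each array, ordered by slide, with the brightest probe (red) below -1.2 on all 4 slide 1 arrays and the others between 0.50 and 1.73 there.

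Array values differed between slides by amounts that depended on the gene and the probe, and those below are of the brightest probe. Slide 1 was read in scan 1 and slide 3 in scan 2, so slide and scan cannot be told apart here. In the 3 groups with arrays on both slides 1 and 3, 10 genes were lower on slide 1 in every group and 13 higher. The mean gap, slide 1 minus slide 3, was beyond 1 log2 unit for 8 genes. It was negative for Abcd3 (-1.85), Cpt2 (-1.69), Etfa (-1.49) and Etfdh (-1.14) and positive for Acads (1.35), Crot (1.33), Ehhadh (1.19) and Acad11 (1.01). For Crat it was 0.73, for Ech1 -0.080, for Decr2 -0.18 and for Acaa1b 0.85. With slide as a fixed block, a setting chosen after seeing the data, the high-fat genotype median was -0.18 and the wild-type diet median stayed at 0.34. Slide 2 held only null low-fat arrays, so in that setting the null low-fat mean rested on replicate 1 alone. Crat differed by -1.51 over both diets and did not pass, its low-fat part being from that 1 null array. For diet in null livers, with the same limit, the median was 0.25 over the module and 0.0097 over all genes, with 33 genes above 0 and 2 below. At an unadjusted p under 0.05, 12 genes were higher with diet in wild-type livers, against 3.82% of all genes. For genotype at high fat, 9 were lower, Abcd2 among them, against 2.17%.

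The interaction asked whether the diet difference depended on genotype. None of the 35 genes, and none of all 14911, passed in limma, and at an unadjusted p under 0.05 there were 0 of the 35, against 0.899% of all genes, 0.463% higher and 0.436% lower. Of the 35, 13 lay above 0 and 22 below, against 52% and 48% of all genes. The median difference between the null and the wild-type diet difference was -0.077 over the module and 0.0099 over all genes, and leaving out single arrays moved it to between -0.23 (null low-fat replicate 1) and 0.0022 (null high-fat replicate 2). Median centring gave -0.44 with 3 genes above 0 and 32 below, where all genes had -0.21. Pecr (-0.41, SE 0.23) and Scp2 (-0.45, SE 0.27) had the smallest unadjusted p, and both were higher with diet in wild-type livers. Decr2 had 0.10 (SE 0.20) and Acaa1a 0.074 (SE 0.37). At these SE values an interaction of either sign could be missed.

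A wider list of 42 other genes, all measured, gave a frame for the module. It held genes of fatty acid entry and activation, auxiliary mitochondrial enzymes, ketone bodies, peroxisomes, propionyl-CoA, carnitine synthesis and regulators. Some of these, Acacb and the regulators among them, do not carry out oxidation. With diet in wild-type livers 34 of the 42 were higher and 8 lower, and at an unadjusted p under 0.05 6 were higher and 1 lower. Of all genes, 51.2% were higher and 48.8% lower, and by that rule 1.81% were higher and 2.21% lower. The median was 0.32. In null livers it was 0.20, with 6 past the unadjusted threshold as higher and 1 as lower, against 0.858% and 1.05% of all genes. The lower gene was Acacb, the mitochondrial acetyl-CoA carboxylase whose product inhibits Cpt1, with differences of -1.61 in wild-type and -2.68 in null livers. Slc27a2, a fatty acid importer and activating enzyme, was higher by 0.85 and 0.51, and Slc22a5, the carnitine importer, by 0.58 and 0.62. All 12 peroxisome genes (assembly factors, catalase and CoA hydrolases) lay above 0 in wild-type livers and 10 of 12 in null livers, with 1 past the unadjusted threshold in each.

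Between genotypes over both diets, 33 of these 42 were lower in null livers and 9 higher, with 6 lower and 3 higher at an unadjusted p under 0.05. Of all genes, 51.2% were lower and 48.8% higher, and 4.19% and 4.21% met that threshold. The 42 were followed in the main fit only. In this comparison median centring moved the module from 25 genes lower and 10 higher to 8 lower and 27 higher. The direction of the 42 was not tested in that setting. Nudt7, a peroxisomal hydrolase of CoA esters, was the 1 of the 42 past an adjusted p of 0.05. It was higher in null livers by 1.28 (SE 0.15, limma adjusted p = 0.00507). It read -0.039, -0.091 and -0.089 in wild-type low-fat livers and 0.87, 1.42 and 1.33 in null low-fat livers, with no overlap. At high fat its genotype difference was 1.29. Pex11a, a factor of peroxisome division, was lower in null livers with a difference of -1.35 (SE 0.25, limma adjusted p = 0.0597), short of the threshold. Cpt1a, the rate-setting enzyme of the mitochondrial route, differed by -0.053 (SE 0.26).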

How the data were processed

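Each of 12 Agilent mouse arrays held 2 dyes, Cy3 for the liver sample and Cy5 for the wild-type low-fat pool, per the labels. The deposited scanner files hold the intensity of each spot in each colour and a log10 ratio of processed Cy5 over Cy3 made by Feature Extraction 9.1.3.1, per the file headers. The authors' deposited table holds log2 differences for 3 comparisons, and limma is named in the submitters' processing notes. On all 43379 spots these equalled group differences of the scanner's log ratios within 1e-05, so they carry no added normalisation. They were used only for this check and direction.

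Mean intensities were corrected with normexp (offset 50), normalised by loess within each array, and turned to log2 of sample over reference with limma 3.58.1 in R 4.3.3. Control and 120 non-uniform spots were left out and repeated spots averaged. To count as measured, a probe had to be well above background in Cy3 throughout the 3 arrays of 1 group or more. The brightest measured probe stood for each of 14911 genes. Names came from RefSeq accessions for 24844 of 41174 probes, from symbols for 6045, from older symbols for 1810 and from the files for 8475. Group means were fitted over all 12 arrays with moderated variances, and p-values were adjusted over all genes by Benjamini-Hochberg, with a threshold of 0.05. The code was tested on simulated data.

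The members and lists were chosen with earlier results of these data known. Array values are given for up to 8 genes per comparison with the smallest unadjusted p (12 for the mean genotype difference) and for 13 genes named in the rule. Alternatives covered background correction, normalisation, the probe filter and rule, scan, slide and replicate number as blocks, the variance model and each array left out. The labels do not say which of the 2 labelling kits each sample had.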

Additional observations from a re-analysis of the deposited data

How the results depend on the processing

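No gene of the module passed an adjusted p of 0.05 in limma without any one array (lowest and highest count 0 and 0 in all 6 comparisons). Agilent's processed signals gave 1 gene at low fat, 1 at high fat and 2 for the mean genotype difference (median -0.22). The shares of all genes there were 0.329%, 0.335% and 1.59%. No background correction gave 1 for the mean genotype difference, against 0.758% of all genes. Abcd2, in each of these counts, was not well above background in null livers. Scan as a block and slide as a random block gave 1, Crat, for the mean genotype difference, against 0.644% and 0.55% of all genes. Median centring gave medians of 0.56 and -0.082 for genotype at low and high fat, 0.56 and 0.070 for diet in wild-type and null livers, 0.22 for mean genotype and -0.44 for the interaction, and turned Acadm to 0.0027. Leaving out each array in turn moved the medians between -0.096 and 0.072 for genotype at low fat, -0.30 and -0.18 at high fat, 0.33 and 0.44 for diet in wild-type livers, 0.095 and 0.34 in null livers, -0.19 and -0.11 for mean genotype and -0.23 and 0.0022 for the interaction. The peroxisomal minus mitochondrial median ran from -0.044 to 0.14 for diet in wild-type livers and from -0.17 to 0.058 for mean genotype. For mean genotype, slide as a fixed block, chosen after seeing the data, gave 0.13, with the null low-fat mean resting on 1 array. The causes were not tested. With group means removed, same-numbered arrays of different groups correlated between -0.58 and 0.57. In wild-type livers same-numbered arrays shared a slide across the diets, and these pairs correlated at 0.33, 0.34 and 0.46, a pairing the main fit did not use. The replicate block left 0 genes past the threshold in each comparison. Of the single-gene values, 609 kept direction and side of the threshold, 7 newly passed and 1 turned. Saturated probes (Acaa2, Scp2) and those near background (Abcd2) limit what differences can be seen.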
